A study of Mus musculus with 2 samples.

Results

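The Mir99, Mir100 and Mir125 genes of the embryonic mouse limb are described here, without the let-7 genes that lie between them. The set was chosen by name and holds 6 genes, Mir99a, Mir99b, Mir100, Mir125a, Mir125b-1 and Mir125b-2, of 1973 miRNA genes in the count tables. In that order their identifiers are ENSMUSG00000065530.1, ENSMUSG00000065396.1, ENSMUSG00000093011.1, ENSMUSG00000065479.1, ENSMUSG00000093354.1 and ENSMUSG00000065472.1. All 6 had a row and passed the minimum of 10 sense counts in both libraries, as did 340 of the 1973 genes. The material was limb of strain B6NCrl at embryonic day 15.5, healthy and of both sexes, with no treatment or genetic change given in the labels. It formed 1 group of 2 biological replicates, each a pool of embryos (78 in replicate 1 and 62 in replicate 2), so differences between single embryos, between forelimb and hindlimb and between cell types are averaged. RNA below 30 nt was sequenced, and reads were counted per miRNA gene in the direction of the gene (sense counts).

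MicroRNAs are cut from hairpin precursors as a 5p and a 3p arm. Bases 2 to 8 of the mature strand, the seed, do most of the pairing with target messenger RNAs. The miR-99/100 family is related to miR-10, and its known targets include Mtor and the IGF1 receptor. The miR-125 family descends from the same ancestor as lin-4, the nematode regulator of developmental timing, and represses Lin28, whose protein in turn blocks let-7 maturation. Vertebrates carry the families in paralogous clusters, each with a miR-99/100 gene first, a let-7 gene next and a miR-125 gene last.

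The 5p arms are shown because the seed sets each gene's family and the bases after it decide which reads can be given to a single gene. They come from RefSeq on GRCm38.p6, which held mature sequences for all 6 genes, and the seed is in capitals.
miR-99a-5p: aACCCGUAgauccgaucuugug
miR-100-5p: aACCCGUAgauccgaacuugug
miR-99b-5p: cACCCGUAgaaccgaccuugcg
miR-125a-5p: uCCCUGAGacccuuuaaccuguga
miR-125b-5p, from Mir125b-1 and from Mir125b-2: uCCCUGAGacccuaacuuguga
miR-351-5p: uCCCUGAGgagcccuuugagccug

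The 3 miR-99/100 arms had the seed ACCCGUA, and no other mature miRNA of the RefSeq table had it. Counting positions from 1 at the 5′ end, miR-99a-5p and miR-100-5p differed by U16A alone and shared their first 15 bases. Between miR-99a-5p and miR-99b-5p, 18 of 22 positions were the same. The miR-125 arms had the seed CCCUGAG, shared with Mir351 of chromosome X and with Mir6367 and Mir6394. miR-125a-5p and miR-125b-5p were identical over their first 13 bases.

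Mir125b-1 on chromosome 9 and Mir125b-2 on chromosome 16 gave the same 22 bases as their 5p arm. Of the 6 genes they were the only ones whose 5p arm RefSeq lists at more than 1 gene. Their 3p arms, shown because they are the part that tells the copies apart, shared at most 10 bases in a row (Mir125b-1) and 12 bases in a row (Mir125b-2) with any other gene of the table.
miR-125b-1-3p: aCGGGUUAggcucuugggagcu
miR-125b-2-3p: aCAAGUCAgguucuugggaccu

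Reads with several alignments were totalled on a line of their own and entered no gene. That line held 2696741 reads (29.4% of the library) in replicate 1 and 3224256 (29.7%) in replicate 2. A read of the 5p arm common to both Mir125b copies is therefore expected to be in neither count, and how many such reads there were was not tested. The levels of Mir125b-1 and Mir125b-2 below are of reads placed at 1 locus and are uncertain as levels of miR-125b.

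The hairpins of Mir99a and Mir125b-1 are printed with both mature arms in capitals, to show a gene whose 5p arm is listed at 1 locus beside one whose 5p arm is listed at both copies. The first is at chr16:77598936-77599000 and the second at chr9:41581926-41582002, both on the plus strand of GRCm38.
Mir99a: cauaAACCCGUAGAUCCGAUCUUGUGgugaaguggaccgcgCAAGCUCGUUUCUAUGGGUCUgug
Mir125b-1: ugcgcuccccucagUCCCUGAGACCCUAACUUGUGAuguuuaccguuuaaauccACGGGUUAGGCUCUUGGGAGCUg

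Counts were scaled to counts per 1000000 sense counts (CPM). Sense counts summed to 4263630 in replicate 1 and 5151214 in replicate 2, and a count of 0 allowed up to 3 counts, or 0.704 and 0.582 CPM. Levels were not divided by length, since the mature arms of these genes all measured 21, 22 or 24 bases and 1 read covers an arm. They are levels of reads, and how reads of different sequences relate to numbers of molecules was not tested. Genes of the limb tissues were present in these libraries, with the cartilage gene Mir140 at 43163 ± 1100.3 CPM and the epidermal gene Mir205 at 16206 ± 763 CPM, while the liver gene Mir122 stood at 71.8 ± 20.3 CPM (SD, n = 2). The muscle gene Mir206 differed between the pools, with 11050 CPM in replicate 1 and 4787 CPM in replicate 2. In a whole limb, more cells of a type and more miRNA per cell cannot be told apart.

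Together the 6 genes took 8.58% ± 0.340 of the sense counts of the limb (SD, n = 2). Replicate 1 gave 8.33%, with a 95% interval by Wilson's method of 8.31 to 8.36, and replicate 2 gave 8.82%, with 8.79 to 8.84. These intervals cover counting error only. Nearly all of it came from the miR-99/100 genes, with 7.91% ± 0.330, against 0.663% ± 0.0103 for the 3 Mir125 genes. By counted reads the first group exceeded the second 11.7-fold in replicate 1 and 12.1-fold in replicate 2. This contrast is expected to leave out the miR-125b reads that align to both copies.

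Among the miR-99/100 genes, Mir99a had far more counted reads than its paralogs. It had 211477 counts in replicate 1 and 258087 in replicate 2, or 49600 and 50102 CPM. By counted reads it ranked 5 among the miRNA genes in both libraries. Reads with several alignments enter no gene, so this is no rank by true abundance. Mir99b had 64107 and 93754 counts, or 15036 and 18200 CPM. Mir100 had 51810 and 67736 counts, or 12152 and 13150 CPM. Mir99a thus stood 3.30-fold above Mir99b in replicate 1 and 2.75-fold in replicate 2. Mir99b and Mir100 lay closer, at a ratio of 1.24 and 1.38, and their ranges over the replicates did not overlap.

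Mir125a led the Mir125 genes. It had 21889 and 26893 counts, or 5134 and 5221 CPM. Mir125b-1 had 3963 and 5108 counts, or 929 and 992 CPM. The lowest was Mir125b-2, with 2115 and 2536 counts, or 496 and 492 CPM. Mir125b-1 exceeded Mir125b-2 by 1.87-fold and 2.01-fold. The order of the 6 genes, from Mir99a through Mir99b, Mir100, Mir125a and Mir125b-1 to Mir125b-2, was the same in both replicates, with no overlap between neighbours.

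**Figure D1:**
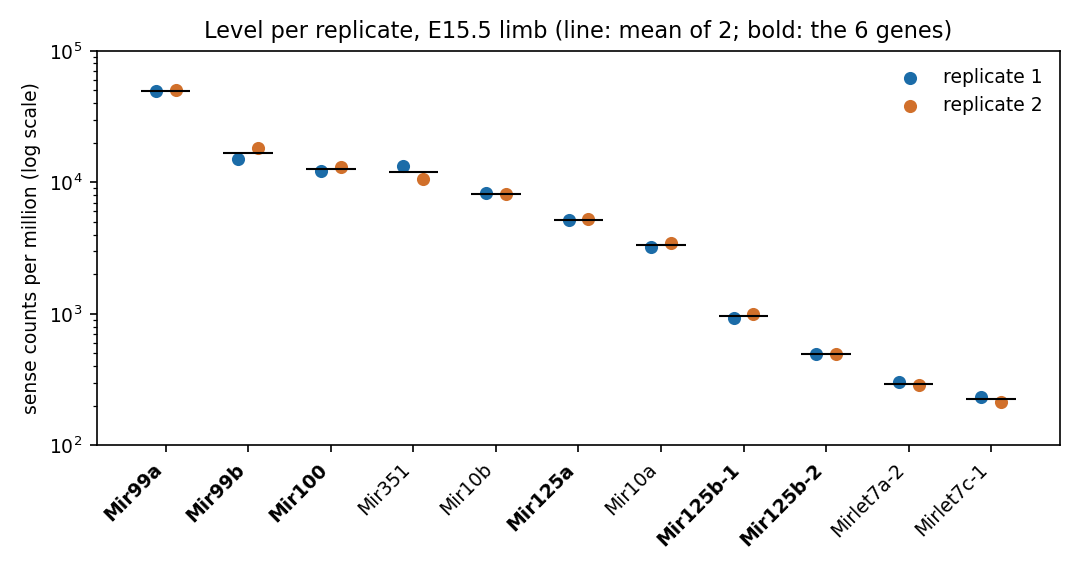
CPM on a log axis for the 6 genes (bold) and for relatives by seed, sequence or cluster, with 1 point per replicate and a line at the mean of 2. Mir99a sits at 49600 and 50102 and Mir125b-2 at 496 and 492, and the order of the 6 genes does not change between replicates.

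By mean level of counted reads the 6 genes ranked 5, 15, 21, 37, 99 and 119 of 1973. For each, the gene outside the set with the closest level was found by the summed absolute log2 difference in CPM over the 2 replicates. Mirlet7g was closest to Mir99a, with 48099 ± 324 CPM and a summed difference of 0.10. Mir30e was closest to Mir99b (16415 ± 906 CPM, 0.16) and Mir17 to Mir100 (13424 ± 1088 CPM, 0.17). For the Mir125 genes these were Mir93 for Mir125a (5502 ± 602 CPM, 0.20), Mir107 for Mir125b-1 (1044 ± 55.1 CPM, 0.24) and Mir195a for Mir125b-2 (494 ± 19.9 CPM, 0.09; SD, n = 2 throughout). With 2 libraries of 1 tissue, this likeness is of level only. Neither the ranks nor the likeness takes in reads with several alignments.

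Each cluster showed the same order, the miR-99/100 gene above the miR-125 gene, with gaps of very different size. On chromosome 16, Mir99a and Mir125b-2 lie 47337 bases apart by their starts, in introns of the non-coding host gene Mir99ahg. Mir125b-2 (77646273 to 77646343) also touches an exon of C130023A14Rik. Mir99a exceeded Mir125b-2 there by 6.64 on the log2 scale in replicate 1 and by 6.67 in replicate 2, or 100-fold and 102-fold. On chromosome 9, Mir100 (41531425 to 41531504) and Mir125b-1 lie 50501 bases apart in introns of 3110039I08Rik and Gm49317. Mir125b-1 also falls in an exon of Gm28119, and Mir100 overlaps an exon of Gm48742 on the other strand. The log2 difference between Mir100 and Mir125b-1 was 3.71 and 3.73, or 13.1-fold and 13.3-fold. In both of these clusters the miR-125 gene is a Mir125b copy, whose shared 5p reads are expected in no count.

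The compact cluster on chromosome 17 is the one in which both 5p arms are listed at 1 gene each. Mir99b (17830188 to 17830257) lies in an intron of Spaca6, a gene of sperm-egg fusion, and Mir125a (17830812 to 17830879) overlaps an exon of it, 624 bases further on. Mir99b exceeded Mir125a there by 1.55 on the log2 scale in replicate 1 and by 1.80 in replicate 2, or 2.93-fold and 3.49-fold. The gap between a miR-99/100 gene and its miR-125 neighbour was thus narrowest where no Mir125b copy was involved. Whether reads with several alignments account for the wider gaps was not tested.

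Of the let-7 genes of the clusters, both that had a row of their own were low by counted reads. Mirlet7c-1, 721 bases after Mir99a, had 1000 and 1110 counts (225 ± 13.5 CPM), so Mir99a was 211-fold and 233-fold higher. Mirlet7a-2, 5291 bases after Mir100, had 1293 and 1478 counts (295 ± 11.6 CPM), and Mir100 was 40.1-fold and 45.8-fold higher (SD, n = 2). RefSeq lists let-7c-5p, the 5p arm of Mirlet7c-1, also at Mirlet7c-2, and the hairpin of Mirlet7a-2 holds let-7a-5p, which RefSeq lists at Mirlet7a-1. Reads common to such copies are expected in no count, so these folds are of reads placed at 1 locus. Mirlet7e, between Mir99b and Mir125a, was not counted under its own name. The row Gm25927, annotated over it on the opposite strand, had 0 sense counts and 28077 and 36078 antisense counts, which lie on the strand of Mirlet7e. Scaled by the sense totals these equal 6585 and 7004 CPM, above Mir125a and below Mir99b.

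**Figure D2:**
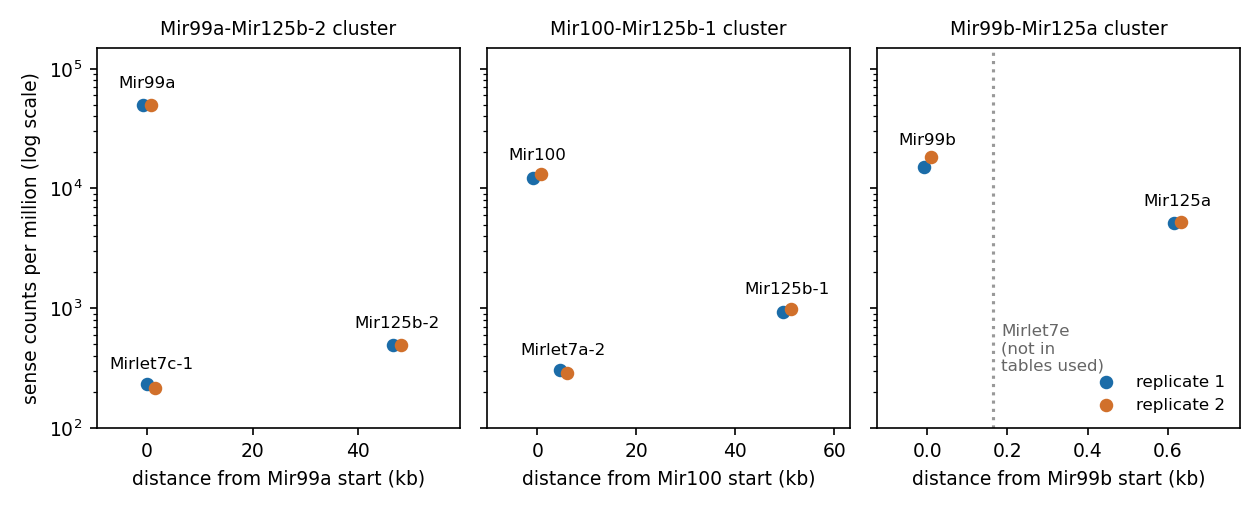
Level of each cluster member (CPM, log axis) against its distance in kb from the start of the miR-99/100 gene, with 1 point per replicate. The miR-99/100 gene lies above the miR-125 gene in all 3 clusters, by a mean log2 difference in CPM of 6.66, 3.72 and 1.68 from left to right. The dotted line marks Mirlet7e, which has no row of its own and no level plotted.

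When the genes were grouped by the seed of their 5p arm, 1 gene in each group held most of the group's sense counts. These are counts of whole genes, 3p arm included, since reads were not counted by arm. Among the genes with ACCCGUA, Mir99a held 63.1% ± 2.18 (SD, n = 2), Mir99b 19.6% in replicate 1 and 22.3% in replicate 2, and Mir100 16.0% ± 0.226. Among the genes with CCCUGAG, the leading one was outside the Mir125 genes. Mir351, a gene of the Mir322 cluster on chromosome X, had 57191 and 54793 counts and held 64.2% ± 4.12 of the sense counts of that group. Mir125a held 27.9% ± 3.11, Mir125b-1 5.19% ± 0.753 and Mir125b-2 2.66% ± 0.251, while Mir6367 and Mir6394 had 0 counts in both libraries. All genes with the CCCUGAG seed held 1.87% ± 0.186 of the sense counts. Shared miR-125b-5p reads are expected in none of these shares, so they do not give the split of miRNA molecules that carry the seed.

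**Figure D3:**
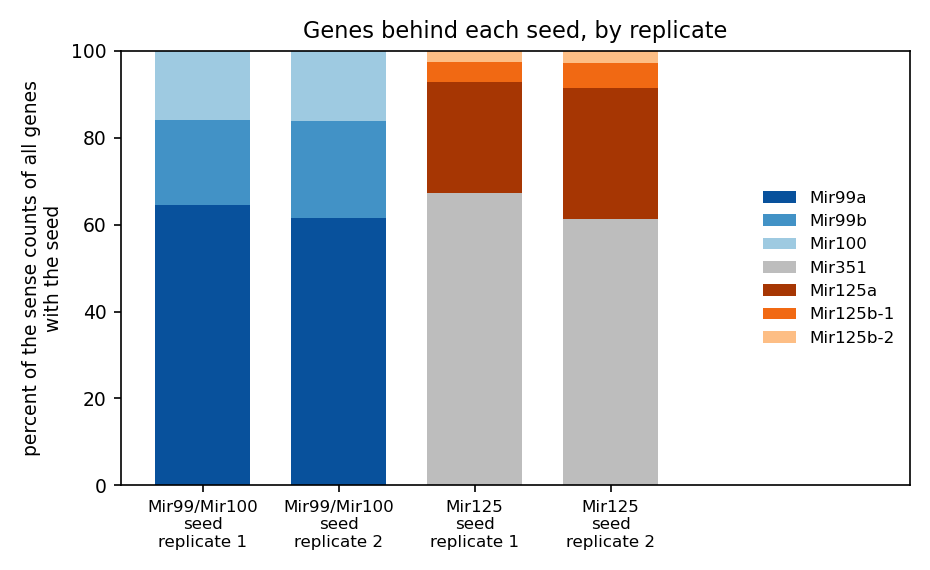
Percent of the sense counts of all genes with a given seed that came from each gene, as stacked bars per replicate. Mir99a fills 64.6% and 61.5% of the miR-99/100 bars and Mir351 67.2% and 61.3% of the miR-125 bars, with both Mir125b copies as thin bands.

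The 2 pools of limbs were compared gene by gene, as replicate 2 over replicate 1, with an exact binomial test and Benjamini-Hochberg adjustment over the 340 genes. This test sets 2 libraries against counting noise and compares no conditions. An adjusted p below 0.05 was reached by 50.9% of all genes tested, 25.3% higher and 25.6% lower in replicate 2. Of the 6 genes 4 were past it, all higher in replicate 2, and none was past it as lower. The count became 5 in the 4 alternatives in which Mir125a passed. Mir206 had a log2 ratio of -1.21 between the same pools, and the part of such a difference in muscle signal in the ratios of the 6 genes was not tested. The median log2 ratio of the 6 was 0.06, beside 0.02 over the 340 genes, whose SD was 0.38.

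All 6 log2 ratios lay between -0.01 and 0.28, inside the spread of the detected genes. Mir99b differed most, with a log2 ratio of 0.28 (counting interval 0.26 to 0.29, adjusted p = 9.84e-306, exact binomial test), and 62.1% of the detected genes differed less than it did. Mir100 had 0.11 (adjusted p = 6.76e-41) and Mir125b-1 0.09 (adjusted p = 0.00482, exact binomial test for both). Mir99a was past the threshold with a log2 ratio of only 0.01 (adjusted p = 0.00141, exact binomial test), a 1.01-fold difference at the deepest counts of the 6 genes.

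Mir125a and Mir125b-2 were not past the threshold. Their log2 ratios were 0.02 (counting interval -0.0015 to 0.05, adjusted p = 0.117) and -0.01 (counting interval -0.09 to 0.07, adjusted p = 0.882, exact binomial test for both). Mir125a passed as higher in these 4 alternatives, which used another total, another normalization or both strands, with a log2 ratio of 0.03 to 0.06. The sign for Mir125b-2 turned in 2 of them. Mir99b and Mir125a share the host Spaca6, yet Mir99b was 1.21-fold higher in replicate 2 and Mir125a 1.02-fold, and the difference between these ratios was not tested.

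Among relatives, Mir351 fell in replicate 2, with a log2 ratio of -0.33 and past the threshold, while the miR-10 genes had 0.08 (Mir10a, past it) and -0.02 (Mir10b, not past it). Mir10a, from the HoxB cluster, stood at 3250 and 3427 CPM, and Mir10b, from the HoxD cluster, at 8267 and 8151 CPM in replicates 1 and 2. Of 12 let-7 family genes 10 had a row, of which 1 was higher, 5 were lower and 4 were not past the threshold. Over all 340 genes tested, 25.3% were past it as higher and 25.6% as lower. The median log2 ratio of the 10 let-7 genes was -0.11, and reads common to several let-7 copies are expected in none of their counts. Neither cluster partner with a row was past the threshold, with -0.12 for Mirlet7c-1 (adjusted p = 0.0982) and -0.08 for Mirlet7a-2 (adjusted p = 0.224, exact binomial test for both).

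**Figure D4:**
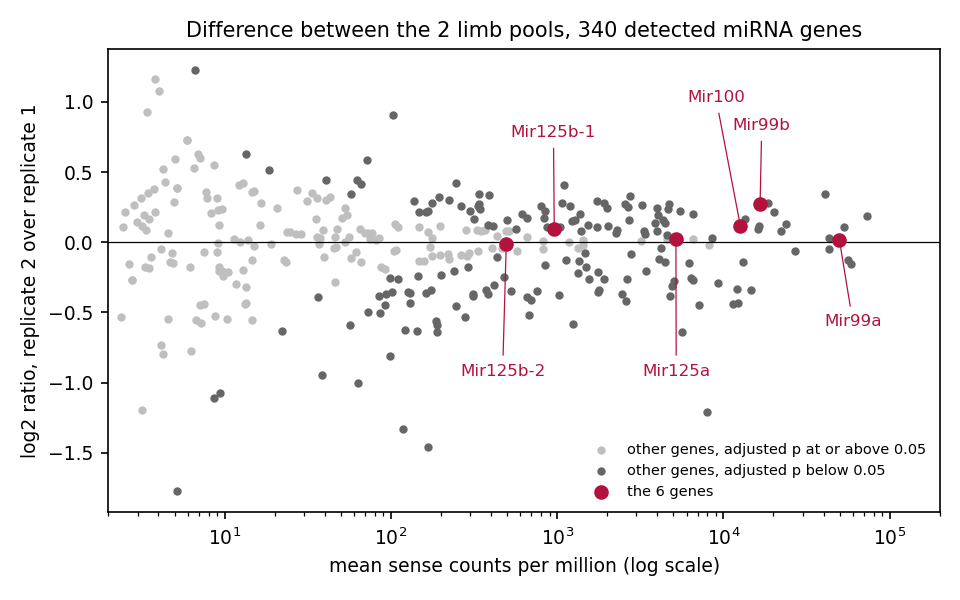
Log2 ratio of replicate 2 over replicate 1 against mean CPM (log axis) for the 340 detected miRNA genes, with the 6 genes in red and the other genes shaded by their adjusted p. The 6 genes lie between -0.01 and 0.28, with Mir99b farthest from the zero line.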

How the data were processed

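Small RNA of 2 pools of mouse limb was sequenced. The authors deposited raw read counts by miRNA gene, on mm10 with annotation M4, per the deposited README. From the values, the 3 unnamed count columns held both strands, the sense strand and the antisense strand, in that order. The aligner, counter and trimming are not given in the sources used here. The 4 summary lines (unmapped, several alignments, no feature, ambiguous) entered no gene or total, and sense counts of genes made up 46.4% and 47.5% of all reads.

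Symbols, positions and hosts came from GENCODE M21 on GRCm38, which matched 1894 of 1973 identifiers; the other 79 held 2 sense counts. An exon of any transcript counted as exonic. The RefSeq table held mature sequences of 6 and hairpins of 4 of the 6 genes. The hairpins of Mir99b and Mir125b-2 are not used here. Shared sequences were sought among the miRNAs of that table only, and the genome was not searched.

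Levels are CPM of the sense total. Genes with 10 or more sense counts in each replicate were tested by an exact two-sided binomial test given the totals, adjusted by Benjamini-Hochberg across all genes tested (scipy 1.17.1, Python 3.11.15). The test was first run on data made with known changes and counting noise only, so that check covers no spread between pools. With 1 group, edgeR's quasi-likelihood test could not be made. Alternatives used counts irrespective of strand, all reads as the total, TMM (edgeR 4.0.16), DESeq2 1.42.0 size factors, no minimum, a minimum of 100 and single replicates. Each replicate is 1 library, so p-values and intervals cover counting error only. Molecular identifiers are not named in the labels, so this is the counting error of reads and not of molecules.

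The 6 genes, the lists and the rule for named genes (the 6, their let-7 partners, genes sharing their seed, the gene closest in level to each) were chosen with earlier results of these data known. The tissue check held Mir140, Mir203, Mir205, Mir206, Mir126a, Mir122 and the Mir10, Mir196 and Mir124a genes. Of those not given in the Results, Mir203 had a mean of 72531 CPM, Mir126a 22336 and Mir196b 40763. By counted reads Mir196a-2 had 799 and Mir196a-1 8.94 CPM, while Mir124a-1, Mir124a-2 and Mir124a-3 had 0 counts. A read that aligns to several copies of a gene enters none of them, and how many such reads there were was not tested. For these copies the values are therefore no levels of the mature miRNA, and 0 counts do not show its absence.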

Additional observations from a re-analysis of the deposited data

Results flagged for a closer look

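The row Gm25927, annotated over Mirlet7e on its opposite strand (chromosome 17, 17830343 to 17830459), had 28077 antisense counts in replicate 1 and 36078 in replicate 2, and 0 sense counts in both. It stands out because the antisense column enters no level of the 6 genes, and these counts are far above the 3 that a count of 0 allows. Scaled by the sense totals they equal 6585 and 7004 CPM, between the levels of Mir125a and Mir99b, which flank the locus. At the 6 genes themselves the antisense column held 0 counts in both replicates.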

How the results depend on the processing

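With all reads of the library as the total, the mean levels became 23400 (Mir99a), 7809 (Mir99b), 5941 (Mir100), 2430 (Mir125a), 451 (Mir125b-1) and 232 (Mir125b-2) CPM, and the shares 4.03% for the 6 genes, 3.71% for Mir99 and Mir100 and 0.311% for Mir125, because that total adds all other reads, those with several alignments included. With counts irrespective of strand, Mir99a stood at 48182, Mir125a at 5004 and Mir125b-2 at 478 CPM, and the Mir125 share was 0.641%. Mir125a passed the threshold as higher in replicate 2 with counts irrespective of strand (log2 ratio 0.032), all reads (0.057), TMM (0.035) and DESeq2 size factors (0.034), so the count of genes past the threshold rose from 4 to 5 in each. Mir125b-2 changed sign with all reads (0.022) and TMM (0.000318) and was past the threshold under neither. The other 80 of the 99 recomputed values kept their direction and side of the threshold. Those with an SD moved by at most 1 SD, and the count of genes moved by at most 1.5 times. For a single replicate this holds by construction with n = 2. The log2 ratios do not depend on the minimum count, so only their adjusted p could change there. With antisense counts of 0 at the 6 genes, their within-cluster log2 differences irrespective of strand were fixed as well. Without a minimum count 24.6% of 694 genes were past the threshold, and with at least 100 counts 67.6% of 247, beside 50.9% of 340. No paired analysis was possible because the series has 1 group. Depth limits Mir125b-2 most of the 6 genes. Reads with several alignments enter no gene at any depth, and how many of them were miR-125b was not tested.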
